A study of Mus musculus with 2 samples.

Results

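Fibroblast growth factors (FGFs) of the hair cycle and their receptors were followed in single cells of mouse dorsal skin. The 9 genes, 6 ligands (Fgf5, Fgf7, Fgf9, Fgf10, Fgf18 and Fgf22) and 3 receptors (Fgfr1, Fgfr2 and Fgfr3), were taken by symbol out of 32285 genes in the count tables, and each held UMIs in both libraries. A UMI is a molecular identifier that marks 1 captured transcript. Both groups were pools of whole dorsal skin from 15 male C3H/HeN mice that were shaved at 7 weeks and were 9 weeks old at harvest, and each pool gave 1 library. Control mice were given vehicle, and mice of the TP group, the androgenetic alopecia (AGA) model, were given testosterone propionate (TP) under the skin at 0.5 mg a day. A pool gives no measure of the spread between mice. The group that also received an antibody is not analysed here.

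FGFs are secreted proteins that bind receptor tyrosine kinases with heparan sulphate as a partner and signal through the adaptor FRS2 to the RAS and ERK kinases. FGF7 and FGF10 come from mesenchyme and act on the epithelial form of FGFR2, whereas FGF5 is known for ending the growth phase of the hair (anagen), and mice without it have long hair. FGF18 is linked to the resting phase, FGF9 to hair formation in wounds, and FGF22 belongs to the subfamily of FGF7 and FGF10.

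After filtering, 39076 control and 18542 TP cells remained, with 106382037 and 133010138 UMIs and medians of 2046 and 4812 UMIs per cell, so that TP cells were sampled more deeply. The libraries shared 184 of the kept barcodes. Of 31 clusters, 18 were named from marker genes into 13 classes, written with "-like". The 13 others, which held 53.7% of control cells and 34.5% of TP cells, go by their number. A level is the UMIs of a gene per 1000000 UMIs of the class (CPM), and a ratio is the TP level over the control level. Where 2 levels are joined by "against", control comes first. Ranges in brackets are exact 95% intervals, and beside a share of 0 stands the share that 3 cells would make. Both cover counting error only. With 1 library per group no test between the conditions was possible, and a difference beyond its interval is one between these 2 libraries.

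Fgf7 and Fgf10, the ligands of the dermal papilla, had the largest share of their UMIs in 1 named class among the 9 genes. Dermal papilla cell-like (DPC-like) cells, 4269 in control and 1485 in TP, held 94.5% of control and 89.6% of TP Fgf7 UMIs, and for Fgf10 95.2% of control and 92.1% of TP UMIs. The name of the class rested on Corin, Rspo3, Sox2, Notum, Ndnf, Vcan, Crabp1, Alx4 and Wif1, and all 9 were detected there in both libraries. Fgf7 stood at 2500 CPM (2472 to 2528, 30780 UMIs) in control against 1617 CPM (1591 to 1643, 14882 UMIs) in TP, a ratio of 0.647 (0.634 to 0.6597). Fgf10 stood at 1687 CPM (1664 to 1710, 20767 UMIs) in control against 748 CPM (730.4 to 766, 6884 UMIs) in TP, a ratio of 0.444 (0.432 to 0.456). Both ligands were lower in the TP library, and the ratio was lower for Fgf10 than for Fgf7. The number of Fgf10 UMIs per Fgf7 UMI was 0.675 (0.663 to 0.687) in control and 0.463 (0.4495 to 0.476) in TP. Over all cells the ratio was 0.408 (0.4003 to 0.416) for Fgf7 and 0.274 (0.267 to 0.281) for Fgf10, or 0.714 and 0.524 with the control's cluster shares given to both libraries. DPC-like cells made up 10.9% of control and 8.01% of TP cells.

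Fgf7 (ENSMUSG00000027208, chromosome 2, 126034658 to 126091185, forward strand) and Fgf10 (ENSMUSG00000021732, chromosome 13, 118714699 to 118792573, forward strand) peaked in the same cells and were lower in the same library, so the 250 bases before the start of each gene are shown. They are from RefSeq GRCm38.p6, forward strand, at chr2:126034408-126034657 and chr13:118714449-118714698. Capitals mark a match to a motif.
Fgf7: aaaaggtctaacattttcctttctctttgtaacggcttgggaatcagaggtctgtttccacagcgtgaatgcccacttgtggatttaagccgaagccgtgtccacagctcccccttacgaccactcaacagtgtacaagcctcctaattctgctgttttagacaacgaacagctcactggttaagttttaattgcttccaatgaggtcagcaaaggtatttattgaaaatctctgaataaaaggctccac
Fgf10: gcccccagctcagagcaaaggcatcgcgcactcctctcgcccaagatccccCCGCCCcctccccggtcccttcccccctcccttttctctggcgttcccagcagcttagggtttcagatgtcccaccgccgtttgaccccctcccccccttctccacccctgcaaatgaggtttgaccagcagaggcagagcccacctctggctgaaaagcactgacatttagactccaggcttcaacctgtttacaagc
Both strands were searched for 4 motifs, which do not overlap here, and their shares are those of 32851 promoter windows of this length. The half-site of the androgen receptor, AGAACA, is in 16.1% of windows. The TCF/LEF motif, CTTTGA, is in 13.8% of them. The TATA box, TATAAA, is in 12.4% of windows. The GC box, GGGCGG, is in 32.7% of them. The Fgf7 window held no match, and the Fgf10 window held 1 GC box, on the reverse strand. The GC content was 43.6% for Fgf7 and 61.2% for Fgf10. These are matches of letters in 1 window and say nothing of binding.

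Within the DPC-like class 3 clusters took different shares of the libraries. Cluster 8, led by Ndnf, Rspo4 and Tmem132c, made up 53.3% of control and 22.1% of TP DPC-like cells. Cluster 9, led by Luzp2, Mgat4c and Kcnip4, made up 42.5% of control and 44.98% of TP. Cluster 21, led by Clstn2, Spock1 and agouti (a), made up 4.24% of control and 32.9% of TP. Fgf7 was lower in TP in all 3. Its level was 1871 against 1704 CPM in cluster 8, a ratio of 0.911 (0.8697 to 0.953). In cluster 9 the Fgf7 level was 3056 against 2006 CPM, a ratio of 0.656 (0.6397 to 0.674), and in cluster 21 it was 2366 against 1151 CPM, a ratio of 0.486 (0.4598 to 0.515). Cluster 8 was the closest to 1 and cluster 21 the farthest, with intervals that do not overlap. Fgf10 was highest in cluster 9 in both libraries, with 2505 against 1194 CPM and a ratio of 0.477 (0.462 to 0.492). In cluster 8 the Fgf10 level was 851 against 657 CPM, a ratio of 0.773 (0.718 to 0.831), and in cluster 21 it was 844 against 282 CPM, a ratio of 0.334 (0.302 to 0.369). The ratios of the clusters had the same order for both ligands. With the control's shares of the 3 clusters given to both libraries, the ratios of the class were 0.7297 for Fgf7 and 0.538 for Fgf10.

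**Figure D1:**
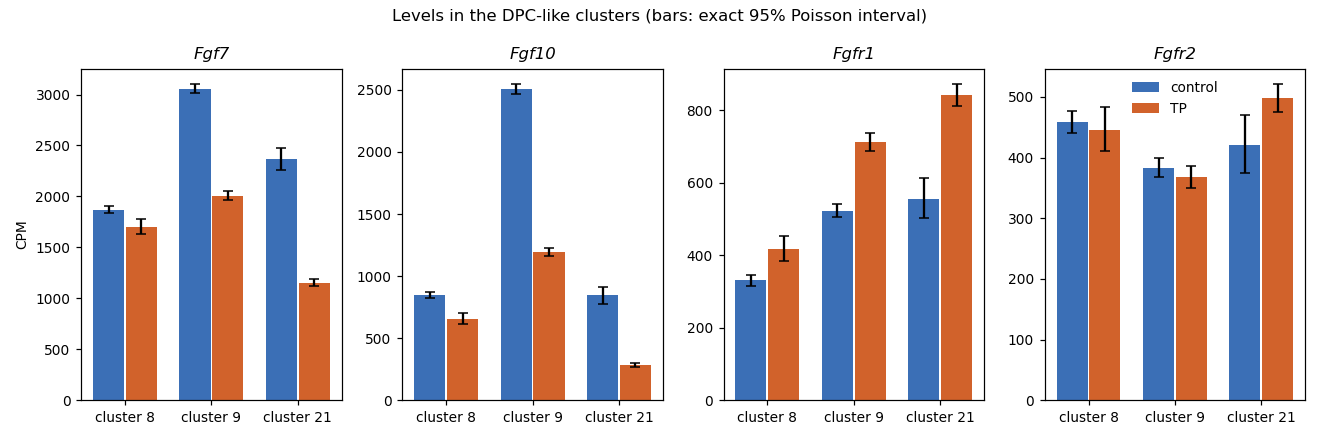
Levels of 2 ligands and 2 receptors in CPM (vertical axis, from 0) in the 3 DPC-like clusters (horizontal axis), with control in blue, TP in orange and exact 95% Poisson intervals as error bars. Fgf7 and Fgf10 are lower in TP in all 3 clusters and Fgfr1 is higher in all 3, while Fgfr2 is higher in TP in cluster 21, at 420.4 against 498 CPM, with intervals that overlap in clusters 8 and 9.

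Cluster 28 (32 control and 298 TP cells), led by Dkk2, Gpc5 and Tnn, scored highest for the DPC markers but was left unnamed. No DPC marker was among its leading genes, and its score of 0.562 was below the 0.7 needed in that case. Cluster 21 had none among its leading genes either but scored 0.89. Cluster 28 made up 0.0819% of control and 1.61% of TP cells. There Fgf7 stood at 273 CPM (159 to 437, 17 UMIs) in control against 387 CPM (348 to 429, 361 UMIs) in TP, and Fgf10 at 144 CPM (66.1 to 274, 9 UMIs) in control against 229 CPM (199.6 to 262, 214 UMIs) in TP. The intervals of the libraries overlap for both ligands. With these cells added to the DPC-like class the ratios were 0.604 for Fgf7 and 0.417 for Fgf10.

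To set aside the difference in depth, cells were thinned to 1000 UMIs each. That dropped 369 control and 90 TP DPC-like cells as too shallow. At that depth 76.1% (74.7 to 77.4) of control and 59.8% (57.2 to 62.4) of TP DPC-like cells had a UMI of Fgf7, and 60% (58.4 to 61.5) of control and 36.6% (34.03 to 39.2) of TP had one of Fgf10. Unthinned, the shares were 83.4% of control and 78.4% of TP for Fgf7 and 72.6% of control and 65.3% of TP for Fgf10. As background, inner root sheath-like cells, an epithelial class, gave 1.45% of control and 1.31% of TP cells for Fgf7 and 1.098% of control and 0.131% of TP cells for Fgf10. Median depths before thinning were 2414 and 5126 UMIs in DPC-like and 1977 and 3720 in inner root sheath-like cells. The shares in DPC-like cells were thus far above background in both libraries. In control, Fgf10 was seen in 67.99% (66.3 to 69.7) against 34.6% (31.5 to 37.7) of DPC-like cells with and without a UMI of Fgf7. In TP these shares were 49.6% (46.2 to 53.1) against 17.1% (14.1 to 20.5). Fgf10 was thus seen more often in cells with a UMI of Fgf7 than in those without, in both libraries, over cells that pool the 3 clusters.

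Outside the papilla both ligands were much lower. In dermal fibroblast-like (DF-like) cells Fgf7 stood at 169.5 CPM (138 to 207, 97 UMIs) in control against 156 CPM (146 to 168, 788 UMIs) in TP, and the ratio of 0.922 (0.746 to 1.15) held 1. Fgf10 stood at 27.97 CPM (15.99 to 45.4, 16 UMIs) in control against 32.1 CPM (27.4 to 37.5, 162 UMIs) in TP in the same cells, and its ratio of 1.15 (0.686 to 2.06) held 1 as well. With a TMM factor, a scaling that sets the bulk of genes equal, the Fgf7 ratio in DF-like cells was 1.21, on the other side of 1. Over the 7 named keratinocyte classes Fgf7 was at 14.9 against 3.73 CPM and Fgf10 at 9.296 against 1.31 CPM. Fgf10 UMIs per Fgf7 UMI there were 0.625 (0.55 to 0.709) in control and 0.352 (0.2799 to 0.439) in TP, an interval that held the value of DPC-like cells in control and lay below it in TP. Of 18 classes and clusters with enough UMIs, 15 had a Fgf7 interval below 1, 1 above and 2 held 1, and for Fgf10 5 of 7 lay below 1. Free RNA gives UMIs at such low levels, and its part was not tested. Of all genes with at least 50 UMIs, 35.3% had an interval below 1 in DPC-like cells and 20.3% in cluster 5. In DPC-like cells the inner root sheath markers, none of them at 0, summed to 2065 against 403 CPM, while the DPC markers summed to 14650 against 16040 CPM and the DF markers to 1357 against 2537 CPM. Of the 9 DPC markers 5 were lower in TP, namely Corin (2712 against 1492 CPM), Rspo3 (1700 against 1238 CPM), Ndnf (1073 against 806 CPM), Crabp1 (1362 against 1281 CPM) and Alx4 (261 against 251 CPM). Vcan (3980 against 6390 CPM), Wif1 (3421 against 4366 CPM), Sox2 and Notum were higher, and Vcan and Wif1 made up most of the sum in TP. The part of these markers in the ligand values was not tested.

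**Figure D2:**
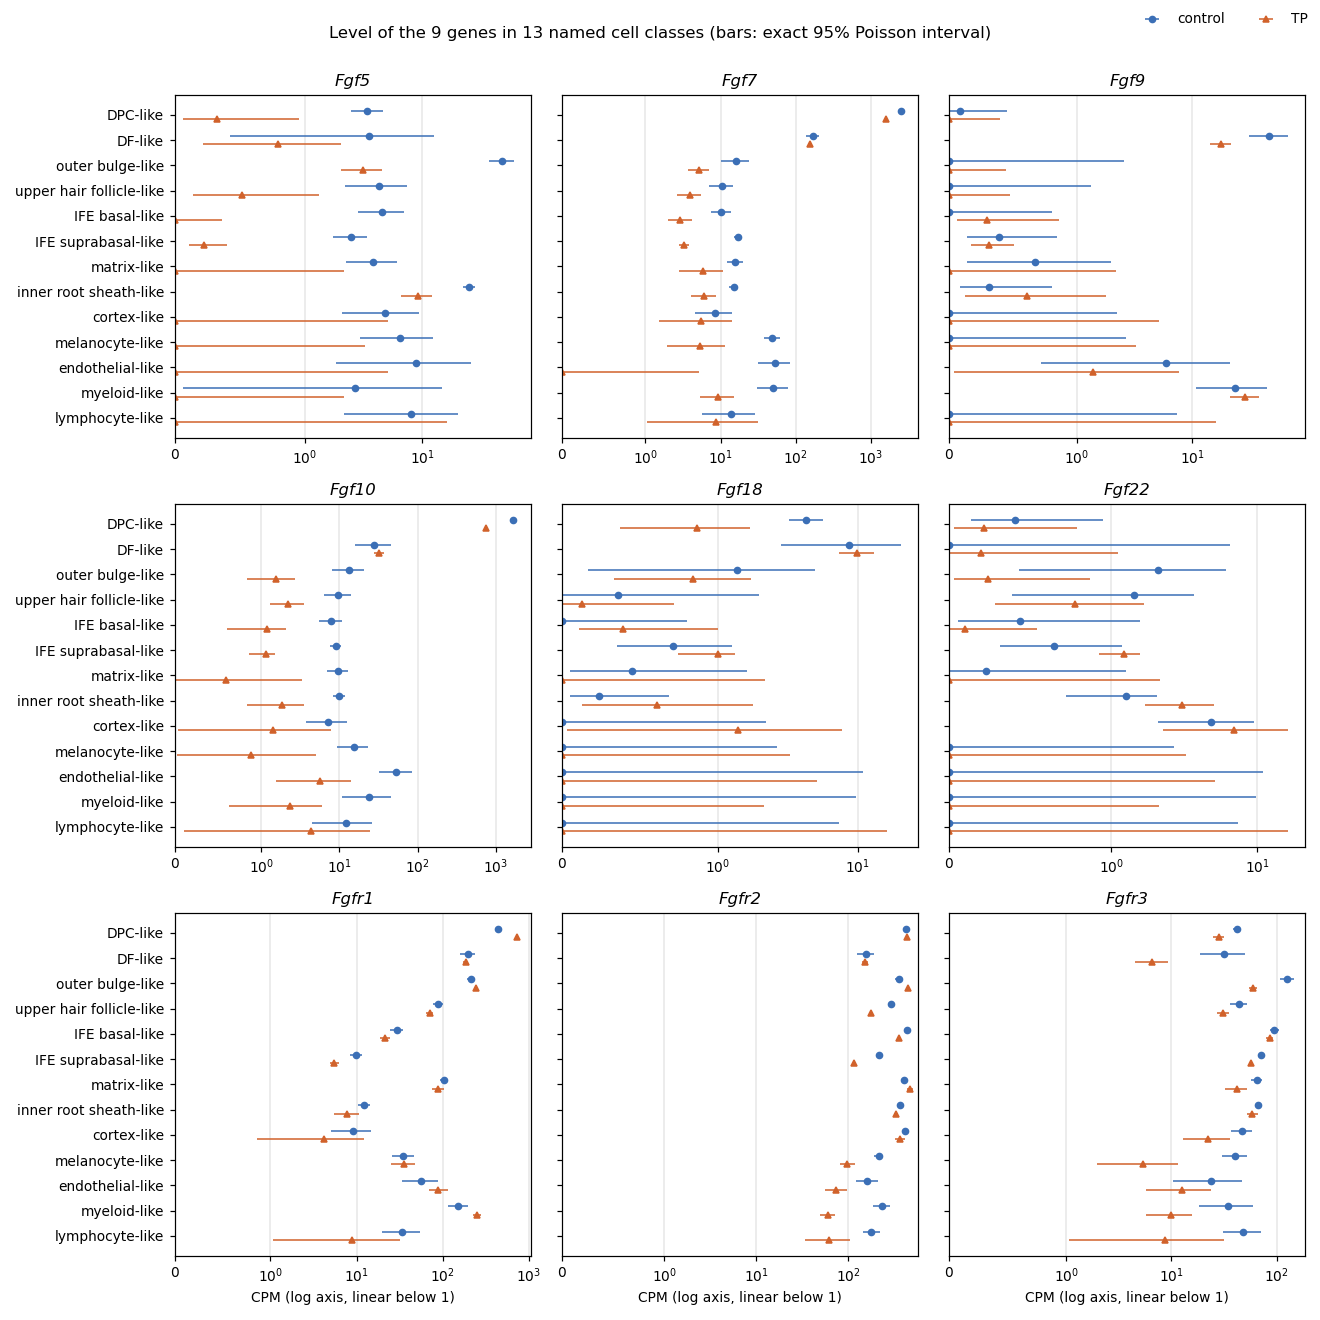
Level of each of the 9 genes in CPM (horizontal axes, log scale, linear below 1) in the 13 named classes (vertical axis), with control as blue circles, TP as orange triangles and exact 95% Poisson intervals as lines. Fgf7 and Fgf10 stand out in DPC-like cells, at 2500 and 1687 CPM in control, Fgf9 in DF-like and myeloid-like cells, and Fgfr2 and Fgfr3 span most classes.

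Fgf5 (ENSMUSG00000029337, chromosome 5, 98254184 to 98277033, forward strand), the ligand known for ending anagen, was seen in follicle epithelium. Over all cells it stood at 14.97 CPM (14.3 to 15.7, 1593 UMIs) in control against 2.26 CPM (2.02 to 2.53, 301 UMIs) in TP, a ratio of 0.151 (0.133 to 0.171), the lowest among the 9 genes. With the control's cluster shares it was 0.326, again the lowest. In control the highest Fgf5 levels of classes and unnamed clusters were in cluster 12 (led by Ntn1, Tmtc1 and Sox5) at 54.3 CPM (47.3 to 62.1), outer bulge-like cells at 47.7 CPM (37.1 to 60.4) and cluster 0 (Slc30a1, Krt71, Creb5) at 40.5 CPM (36.1 to 45.3), with overlapping intervals between neighbours. Cluster 7 (Knl1, Kif14, Neil3) followed at 30.7 CPM (26.3 to 35.6) and inner root sheath-like cells at 25.2 CPM (22.5 to 28.1). That class joined 2 unlike clusters. Cluster 15 (Sytl2, Krt71, Krt27) was near the top with 53.8 against 18.3 CPM, a ratio of 0.341 (0.2404 to 0.472), and cluster 1 (Gm49708, Krt73, Cdh6) had 8.77 against 0.774 CPM, a ratio of 0.0883 (0.0105 to 0.331). In TP cluster 12 was again the highest, at 24.5 CPM (17 to 34.3), while outer bulge-like cells were at 3.12 CPM (2.04 to 4.57).

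In each of the 6 classes and clusters with at least 50 of its UMIs, Fgf5 was lower in TP, with ratios from 0.0653 to 0.5102 and every interval below 1. In cluster 5, which is among them, 20.3% of all genes with at least 50 UMIs had an interval below 1. The lowest ratio was that of outer bulge-like cells, where 594 control cells held 69 Fgf5 UMIs and 1564 TP cells held 26, a ratio of 0.0653 (0.0399 to 0.104). Cluster 5, led by the histone genes Hist1h3c, Hist1h2ae and Hist1h2ap, held the most Fgf5 UMIs over both libraries. Its Fgf5 level was 24.4 CPM (21.4 to 27.8, 232 UMIs) in control against 12.5 CPM (10.5 to 14.6, 147 UMIs) in TP, a ratio of 0.5102 (0.412 to 0.63), which was 0.264 after cells were thinned to 1000 UMIs. In thinned cells 4.44% (2.81 to 6.65) of control and 0.413% (0.152 to 0.897) of TP outer bulge-like cells had a Fgf5 UMI, and 2.31% (1.68 to 3.103) of control and 0.584% (0.215 to 1.27) of TP cells of cluster 5. DPC-like cells, which are not known to make FGF5, gave 0.436% (0.254 to 0.697) in control and 0 of 1395 cells (which allows up to 0.215%) in TP. Lymphocyte-like cells gave 0.909% (0.1103 to 3.25) in control and 0 of 81 cells (which allows up to 3.704%) in TP. The control shares of outer bulge-like cells and of cluster 5 lay above those of DPC-like cells in either library, but their intervals overlapped the wide one of control lymphocyte-like cells. The intervals of both TP shares overlapped that of control DPC-like cells. Over all UMIs the TP level of outer bulge-like cells, 3.12 CPM (2.04 to 4.57), lay above those of DPC-like cells (0.326 CPM) and IFE suprabasal-like cells (0.226 CPM) of the same library, and the intervals were apart. Median depths were 1853 and 3480 UMIs in outer bulge-like and 4810 and 11030 in cluster 5 cells. All 7 markers of the outer bulge were present in both libraries. Lgr5 (631 against 736 CPM), Sox9 (269.8 against 391 CPM), Lhx2, Ptn and Krt15 were higher in TP, and Postn (470.3 against 405 CPM) and Cd34 (32.5 against 27.3 CPM) were lower. The inner root sheath markers in outer bulge-like cells, none at 0, summed to 2484 CPM in control and 463 CPM in TP. They summed to 2830 CPM in control and 1429 CPM in TP in cluster 5 and to 3154 CPM in control and 947 CPM in TP in cluster 12, again with none at 0. Inner root sheath-like cells of cluster 15 themselves held Fgf5, and the part of these markers in the Fgf5 values was not tested.

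The other 3 ligands were sparse, with 58 to 164 UMIs a library. Fgf9 (ENSMUSG00000021974, chromosome 14, 58070671 to 58112854, forward strand) was found in DF-like and myeloid-like cells, and lymphocyte-like cells had none in either library. In DF-like cells Fgf9 stood at 47.2 CPM (31.1 to 68.7, 27 UMIs) in control against 17.9 CPM (14.4 to 21.9, 90 UMIs) in TP, a ratio of 0.378 (0.244 to 0.605). In thinned cells this ratio was 0.631 (0.264 to 1.67), which held 1. In DF-like cells the inner root sheath markers summed to 2213 against 348 CPM, the Schwann cell markers to 267 against 119.6 CPM and the DF markers to 48630 against 83530 CPM, and the part of the first and the last in the Fgf9 values was not tested. Without cells marked as Schwann cells the Fgf9 ratio was 0.381 (0.244 to 0.614). In myeloid-like cells Fgf9 stood at 23.9 CPM (10.9 to 45.3, 9 UMIs) in control against 28.9 CPM (21.5 to 38.1, 50 UMIs) in TP, and the ratio of 1.21 (0.5902 to 2.804) held 1. Over all cells Fgf9 was higher in TP, with 0.545 CPM (0.414 to 0.705, 58 UMIs) in control against 1.23 CPM (1.05 to 1.44, 164 UMIs) in TP, a ratio of 2.26 (1.67 to 3.11). DF-like cells made up 0.558% of control and 3.64% of TP cells, and myeloid-like cells 0.435% of control and 2.25% of TP cells. With the control's cluster shares given to both libraries the Fgf9 ratio over all cells was 0.684, below 1.

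Fgf18 (ENSMUSG00000057967, chromosome 11, 33116970 to 33147400, reverse strand) was found in DPC-like, DF-like and IFE suprabasal-like cells, the last of which held 12.6% of control and 34.5% of TP UMIs. Its level was highest in cluster 29 in control, at 11.1 CPM (1.34 to 39.9, 2 UMIs), and in DF-like cells in TP, with intervals that overlap those of the next. In DPC-like cells it stood at 4.304 CPM (3.22 to 5.63, 53 UMIs) in control against 0.869 CPM (0.375 to 1.71, 8 UMIs) in TP, a ratio of 0.202 (0.0829 to 0.428). With doublet calls kept these levels were 1.56 against 0.1998 CPM, a ratio of 0.129 (0.0148 to 0.515). In that setting all cells were clustered and named anew, so the DPC-like class is not the same set of cells. In thinned cells the ratio was 0.215 (0.00506 to 1.43), which held 1. Cluster 9 held 37 of the control UMIs and all 8 of the TP UMIs, and cluster 8 held 16 and 0. In DF-like cells Fgf18 stood at 8.74 CPM (2.84 to 20.4, 5 UMIs) in control against 9.92 CPM (7.36 to 13.1, 50 UMIs) in TP, and the ratio of 1.13 (0.455 to 3.65) held 1. IFE suprabasal-like cells had 0.713 CPM (0.356 to 1.28, 11 UMIs) in control against 1.01 CPM (0.745 to 1.33, 49 UMIs) in TP, and the ratio of 1.41 (0.725 to 3.02) held 1. Over all cells the ratio was 1.31 (0.993 to 1.73), which held 1 too, but it was 1.56 (1.21 to 2.02) with doublet calls kept and 1.995 (1.06 to 3.75) in thinned cells, with both intervals above 1. With the control's cluster shares it was 0.958. After thinning 0.333% (0.178 to 0.569) of control and 0.0717% (0.00182 to 0.399) of TP DPC-like cells had a UMI of Fgf18, so that among thinned TP cells it was seen in a single one.

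Fgf22 (ENSMUSG00000020327, chromosome 10, 79755051 to 79757795, forward strand) had low levels in many classes and clusters, with overlapping intervals between neighbours in level. Suprabasal cells of the interfollicular epidermis (IFE suprabasal-like) had 0.648 CPM (0.311 to 1.19, 10 UMIs) in control against 1.21 CPM (0.924 to 1.57, 59 UMIs) in TP, and the ratio of 1.87 (0.95 to 4.11) held 1. It was 2.03 (1.04 to 4.41) with doublet calls kept and 1.87 (1.001 to 3.81) at the lower cluster resolution of 0.6, with both intervals above 1, and 0.641 (0.0465 to 8.84) in thinned cells. Cluster 6 of this class, led by Hrnr, Flg2 and Flg, held 8 control and 53 TP UMIs, at 0.803 against 1.74 CPM, a ratio of 2.17 (1.03 to 5.29). Hair cortex-like cells had the highest levels among the named classes, 4.81 CPM (2.08 to 9.48, 8 UMIs) in control against 6.97 CPM (2.26 to 16.3, 5 UMIs) in TP. Inner root sheath-like cells had 1.26 against 3.04 CPM. Outer bulge-like cells had 2.075 against 0.24 CPM, and upper hair follicle-like cells had 1.43 against 0.775 CPM. Over all cells Fgf22 stood at 0.884 CPM (0.714 to 1.08, 94 UMIs) in control against 0.835 CPM (0.687 to 1.01, 111 UMIs) in TP, a ratio of 0.944 (0.711 to 1.26). That interval held 1.

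Among the receptors, Fgfr1 (ENSMUSG00000031565, chromosome 8, 25518759 to 25575718), which binds many FGFs and is known from mesenchyme, was highest in DPC-like cells among the named classes in both libraries. It stood at 441 CPM (429 to 453, 5427 UMIs) in control against 722 CPM (705 to 739.5, 6644 UMIs) in TP, a ratio of 1.64 (1.58 to 1.698). All 3 DPC-like clusters had more Fgfr1 in TP. The Fgfr1 level was 330.3 against 418 CPM in cluster 8, a ratio of 1.27 (1.15 to 1.39). It was 522 against 712 CPM in cluster 9, a ratio of 1.36 (1.297 to 1.43), and 556 against 842 CPM in cluster 21, a ratio of 1.51 (1.37 to 1.68). Each was below the ratio of the whole class, which was 1.34 with the control's cluster shares. In thinned cells 32.8% (31.3 to 34.3) of control and 47.5% (44.8 to 50.1) of TP DPC-like cells had a Fgfr1 UMI, and inner root sheath-like cells gave 1.47% of control and 0.785% of TP cells. Fgfr1 and the papilla ligands thus differed in opposite directions in the same 3 clusters.

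Elsewhere Fgfr1 stood at 213 against 240.3 CPM in outer bulge-like cells, a ratio of 1.13 (1 to 1.28). In DF-like cells it stood at 194 against 184 CPM, with a ratio of 0.947 (0.777 to 1.16) that held 1 and was 1.25 with a TMM factor. Myeloid-like cells had 151 against 249.9 CPM, a ratio of 1.65 (1.25 to 2.22), and cluster 12 had 77.5 against 137 CPM, a ratio of 1.77 (1.47 to 2.13). In myeloid-like cells the myeloid markers summed to 4507 against 12810 CPM and the inner root sheath markers to 2436 against 457 CPM, and their part was not tested. IFE suprabasal-like cells had little Fgfr1, 9.78 against 5.53 CPM. Of 20 classes and clusters, 4 had an interval above 1, 6 below 1 and 10 held 1. Over all cells the Fgfr1 ratio was 1.19 (1.15 to 1.22).

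Fgfr2 (ENSMUSG00000030849, chromosome 7, 130162451 to 130266808, reverse strand) encodes the receptor whose epithelial form binds FGF7, FGF10 and FGF22. An assay of transcript 3′ ends does not separate its epithelial and mesenchymal forms. Over all cells Fgfr2 stood at 369 CPM (365 to 372, 39216 UMIs) in control against 261 CPM (258 to 263, 34651 UMIs) in TP, a ratio of 0.707 (0.697 to 0.717). The highest levels were in cluster 2 (Cdh13, Il20ra, Sox6) with 752 against 726 CPM and in cluster 12 with 677 against 799.8 CPM. In DPC-like cells, which held 13.1% of control and 11.5% of TP Fgfr2 UMIs, it stood at 418 CPM (407 to 429.8) in control against 432 CPM (418 to 445) in TP, and the ratio of 1.03 (0.9898 to 1.08) held 1. Within the class it held 1 in clusters 8 and 9 but not in cluster 21, where it was 1.18 (1.05 to 1.34). IFE suprabasal-like cells had 217 against 115 CPM, a ratio of 0.53 (0.508 to 0.553). In that class the outer bulge markers summed to 919.6 against 296 CPM, the inner root sheath markers to 1142 against 621 CPM and its own markers to 40400 against 64520 CPM, and their part was not tested. Upper hair follicle-like cells had 288 against 177 CPM, a ratio of 0.614 (0.563 to 0.671), while outer bulge-like cells had 350 against 445 CPM, a ratio of 1.27 (1.16 to 1.398). The interval lay above 1 in 6 of 24 classes and clusters, below 1 in 11 and held 1 in 7, and 4 ratios changed sides with a TMM factor. IFE suprabasal-like cells made up 5.802% of control and 19.1% of TP cells, and with the control's cluster shares the ratio over all cells was 0.928. In thinned cells 32.7% of control and 31.6% of TP DPC-like cells had a Fgfr2 UMI, but so did 11.4% of control and 2.47% of TP cells of the lymphocyte-like class, a class not known for it.

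Fgfr3 (ENSMUSG00000054252, chromosome 5, 33721724 to 33737068, forward strand), a receptor known from skin epithelium and cartilage, was highest in epithelial cells here. In control it led in outer bulge-like cells at 126 CPM (108 to 146), and clusters 25, 2, 19 and 12 followed at 114 to 106 CPM with overlapping intervals. In TP outer bulge-like cells had 59.7 CPM (54.6 to 65.2), a ratio of 0.474 (0.399 to 0.565), or 0.535 with a TMM factor. IFE basal-like cells had 94.96 against 85.5 CPM, and the ratio of 0.9002 (0.802 to 1.01) held 1. IFE suprabasal-like cells, which held the most Fgfr3 UMIs, had 70.3 CPM (66.2 to 74.6, 1085 UMIs) in control against 57.2 CPM (55.1 to 59.4, 2782 UMIs) in TP, a ratio of 0.814 (0.758 to 0.874). With a TMM factor that ratio was 1.02, so that its direction rests on the scaling. No interval of the 20 classes and clusters lay above 1, and 10 lay below it, but 4 ratios changed sides with a TMM factor. Among the 10 were DF-like and melanocyte-like cells, where Fgfr3 was low, at 6.54 and 5.31 CPM in TP. Of all genes with at least 50 UMIs, 35.3% lay below 1 and 21.9% above in DPC-like cells. In cluster 5 these shares were 20.3% and 19.5%. In thinned cells 7.37% (6.33 to 8.52) of control and 6.13% (5.37 to 6.98) of TP IFE suprabasal-like cells had a Fgfr3 UMI. Unthinned, the order was the opposite, with 35.02% of control and 47.9% of TP cells at median depths of 5203 and 10407 UMIs. The thinned control share lay within the interval of control lymphocyte-like cells, 5% (2.52 to 8.77).

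**Figure D3:**
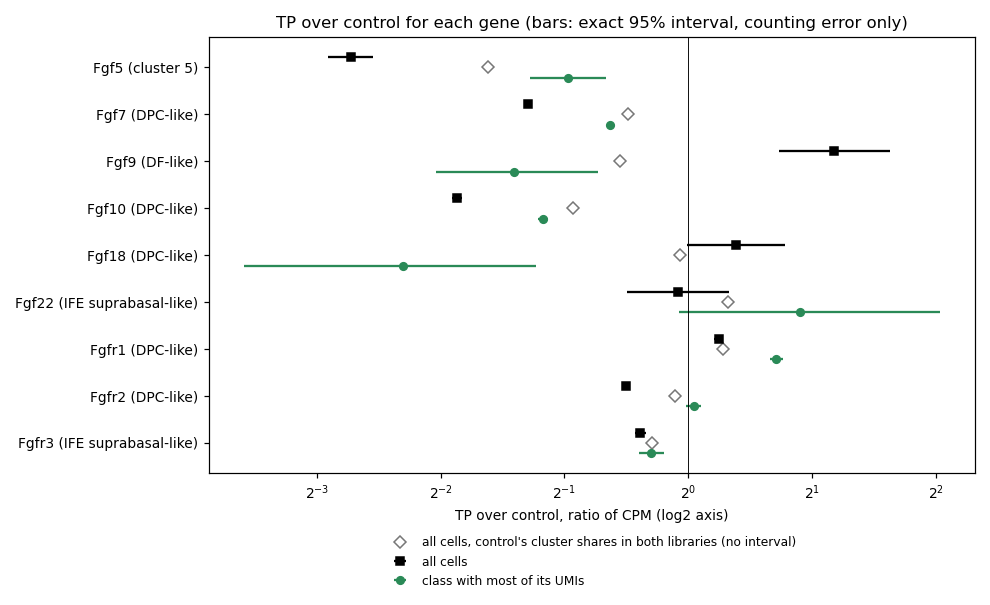
TP over control ratio of CPM (horizontal axis, log2 scale) for each gene (vertical axis, with its main class in brackets): black squares for all cells, green circles for the class or cluster with most of its UMIs, both with exact 95% intervals, and open diamonds for all cells with the control's cluster shares given to both libraries. Fgf9 lies above 1 over all cells, at 2.26, and below 1 in its class, at 0.378, and Fgfr1 is above 1 in both.

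A gene was counted as 2-fold apart when the libraries were apart by 1 or more in log2 of its counts per 10000 with 0.1 added. Over all cells 3 of the 9 genes were at least 2-fold lower in TP, where 0.541% of 26229 genes were, and 0 were higher, where 1.13% were. The 3 were Fgf5, Fgf7 and Fgf10, at -1.03, -1.23 and -1.70 on this log2 scale. None of the 3 calls was kept with the control's cluster shares, where the values were -0.75, -0.47 and -0.87. With a TMM factor Fgf10 alone was called, at -1.49, and Fgf5 and Fgf7 fell short at -0.98 and -0.996. In DPC-like cells Fgf10 was lower, at -1.16, with 0.962% of genes lower and 0.889% higher. In DF-like cells Fgf9 and Fgfr3 were lower, at -1.04 and -1.33, with 2.61% of genes lower and 0.865% higher. Fgfr3 was low there, at 31.5 against 6.54 CPM (18 and 33 UMIs), and stood at 47.9 against 8.75 CPM in lymphocyte-like cells. The inner root sheath markers in DF-like cells summed to 2213 against 348 CPM, and their part in the Fgfr3 values was not tested. In outer bulge-like cells Fgf5 and Fgf10 were lower, at -2.14 and -1.002, with 0.853% of genes lower and 0.514% higher, and that Fgf10 call rested on fewer than 50 UMIs over both libraries. In IFE suprabasal-like cells Fgf7, at a low level there, was lower at -1.04, with 0.286% of genes lower and 0.336% higher. In cluster 5 none of the 9 was 2-fold apart, where 0.0737% of genes were lower and 0.187% higher. Members that were 2-fold higher were found in cluster 29 alone, a small cluster led by Myh11, Tagln and Lmod1, with 63 control and 112 TP cells. Its leading genes held 3 markers of the dermal sheath cup and 1 of smooth muscle and pericytes, so it was left unnamed. The dermal sheath cup markers summed to 14790 against 21560 CPM in cluster 29, and those of smooth muscle and pericytes to 9687 against 12020 CPM. There Fgf7 stood at 16.6 CPM (3.42 to 48.5, 3 UMIs) in control against 145 CPM (116 to 179, 87 UMIs) in TP and Fgf10 at 16.6 CPM (3.42 to 48.5, 3 UMIs) in control against 66.8 CPM (47.7 to 90.9, 40 UMIs) in TP, or 2.55 and 1.53 on the log2 scale. Fgfr3 was lower there at -2.02, on fewer than 50 UMIs over both libraries. Its level was 44.2 CPM (19.1 to 87.1) in control against 3.34 CPM (0.404 to 12.1) in TP. In that cluster 6.44% of genes were higher and 4.5% lower, and the DPC markers summed to 122 CPM in control and 324 CPM in TP, whose part was not tested. Fgf7, Fgf10, Fgfr2 and Fgfr3 were lower in melanocyte-like cells, with 4.02% of genes lower and 1.59% higher, and in myeloid-like cells, with 5.93% of genes lower and 2.53% higher. Fgf7, Fgf10 and Fgfr2 were lower in endothelial-like cells, with 3.8% of genes lower and 2.5% higher. The 3 receptors passed this line in lymphocyte-like cells, with 8.13% of genes lower and 3.8% higher, but on 17 and 2 UMIs of Fgfr1 and 24 and 2 of Fgfr3, whose level intervals overlapped between libraries, and 89 and 14 of Fgfr2. The inner root sheath markers summed to 3874 against 674 CPM in lymphocyte-like cells and the DPC markers to 217 against 78.7 CPM, and their part was not tested. Fewer than 50 UMIs over both libraries stood behind the calls of Fgf10 in melanocyte-like cells and of Fgf7 and Fgf10 in endothelial-like cells. The same held for Fgf7, Fgf10 and Fgfr3 in myeloid-like cells. The DPC markers summed to 416 against 178 CPM in myeloid-like and 305 against 88.5 CPM in melanocyte-like cells, and their part was not tested either. Fgf5 was lower in cluster 7, with 0.225% of genes lower and 0.337% higher. Fgf10 was lower in cluster 10, with 1.07% of genes lower and 0.281% higher, and Fgf7 in cluster 17, with 0.237% of genes lower and 0.748% higher. The Fgf7 level of cluster 17 was low, at 17.9 against 2.84 CPM (62 and 7 UMIs). It was near that of IFE suprabasal-like cells, 17.3 against 3.29 CPM. The cluster 10 call rested on fewer than 50 UMIs over both libraries. Inner root sheath markers summed to 2876 against 591 CPM and DPC markers to 162 against 63.5 CPM in cluster 10, and their part was not tested. The pseudocount equals 10 CPM, so Fgf9, Fgf18 and Fgf22 could hardly pass over all cells, nor could other genes of low level that the shares count. With a pseudocount of 1 UMI, 1840 (10.5%) of the 17576 genes with at least 50 UMIs were lower and 1447 (8.23%) higher. Of the members the same 3 were lower in that setting and Fgf9 was higher, at 1.16. With the control's cluster shares 4 genes were lower and 51 higher.

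The rest of the pathway was counted in a list of 47 genes. Over all cells 1 was at least 2-fold higher in TP and 0 were lower, and the median log2 difference was -0.02 against -0.01 for all genes. The gene was Fgfbp1, whose product carries FGFs out of the matrix, with 51.5 against 145 CPM and a ratio of 2.81 (2.73 to 2.896). Its ratio was smaller within the epidermal classes, where it stood at 138 against 260.1 CPM in IFE suprabasal-like cells, a ratio of 1.88 (1.798 to 1.97), and at 124 against 231 CPM in IFE basal-like cells. Among the most abundant genes of the list were the heparan sulphate proteins Sdc4 (221 against 359.5 CPM) and Sdc1 (115 against 179 CPM), with ratios of 1.63 (1.604 to 1.66) and 1.56 (1.52 to 1.59). Within classes the ratios of Sdc1 went both ways, with 1.46 (1.402 to 1.52) in IFE suprabasal-like, 0.581 (0.526 to 0.642) in outer bulge-like, 0.556 (0.341 to 0.9496) in DF-like and 0.891 (0.812 to 0.978) in DPC-like cells. Those of Sdc4 were 1.1 (1.07 to 1.13) in IFE suprabasal-like and 0.8504 (0.788 to 0.918) in DPC-like cells. The adaptors Frs2 (124 against 71.2 CPM), Gab1 (153 against 122 CPM) and Grb2 (110.2 against 86.9 CPM) and the inhibitor Spred2 (120.2 against 77.99 CPM) were lower in TP, with ratios of 0.574 (0.559 to 0.5895), 0.802 (0.785 to 0.8196), 0.789 (0.769 to 0.809) and 0.649 (0.632 to 0.666). Genes with at least 50 UMIs over all cells had a median log2 ratio of -0.235, and the TMM factor was 0.841. The ratios of Gab1 and Grb2, 0.802 and 0.789, lay not far below that factor. In cluster 5 Spred2 was higher, with a ratio of 1.18 (1.08 to 1.295).

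In DPC-like cells 1 gene of the list was at least 2-fold higher in TP and 2 were lower. The median log2 difference of its 40 genes with a UMI was -0.15, against -0.01 for all genes. Of these 40 genes 33 had at least 50 UMIs, and all genes with at least 50 UMIs in DPC-like cells had a median log2 ratio of -0.098. Both lower genes are among the 10 feedback inhibitors of the list. Of these 10, 7 had an interval below 1 in DPC-like cells, 2 held 1, and Dusp6 lay above it, with 5.04 against 8.91 CPM and a ratio of 1.77 (1.26 to 2.502). Among all genes with at least 50 UMIs in these cells, as 9 of the 10 had, 35.3% had an interval below 1 and 21.9% above it. In cluster 5, by contrast, 6 of the same 10 had an interval above 1, among them Dusp6 at 2.64 (2.13 to 3.296), Spry1 at 1.99 (1.602 to 2.48) and Spry4 at 3.72 (2.15 to 6.85), and 1, Dusp4 with 9 and 1 UMIs, lay below it. There 19.5% of all genes with at least 50 UMIs, as 7 of the 10 had, lay above 1 and 20.3% below, and the difference between DPC-like cells and cluster 5 was not tested. In DPC-like cells Dusp4, a phosphatase of ERK, stood at 98.02 against 21.4 CPM (1207 and 197 UMIs), a ratio of 0.218 (0.187 to 0.254). Spry1, a Sprouty protein, stood at 122 against 47.7 CPM, a ratio of 0.392 (0.352 to 0.436). The higher gene was Fgf13, a family member that stays inside the cell, with 16.2 against 76.6 CPM (199 and 705 UMIs), a ratio of 4.74 (4.04 to 5.58). In outer bulge-like cells Etv4, a transcription factor induced by FGF signalling, stood at 24.9 against 67 CPM, a ratio of 2.69 (1.92 to 3.88). Etv5, of the same family, held 1 there, with a ratio of 0.898 (0.632 to 1.31). In DPC-like cells both had intervals below 1, with ratios of 0.3995 (0.277 to 0.565) for Etv4 and 0.499 (0.406 to 0.611) for Etv5, and in cluster 5 both lay above 1, with 1.496 (1.34 to 1.67) and 1.297 (1.08 to 1.57). In outer bulge-like cells Flrt2, of a family that binds FGF receptors, stood at 305 against 131 CPM, a ratio of 0.428 (0.383 to 0.479). In IFE basal-like cells, where 0.261% of all genes were 2-fold higher and 0.382% lower, the ERK phosphatase Dusp6 stood at 8.49 against 32.6 CPM, a ratio of 3.84 (2.75 to 5.499). In DF-like cells 1 gene was lower, Fgfbp1 at 47.2 against 9.72 CPM (27 and 49 UMIs). Its control level there was below the 138 CPM of control IFE suprabasal-like cells. The inner root sheath markers summed to 2213 against 348 CPM in DF-like cells, and their part in the Fgfbp1 values was not tested. No gene of the list was 2-fold apart in IFE suprabasal-like cells or in cluster 5.

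**Figure D4:**
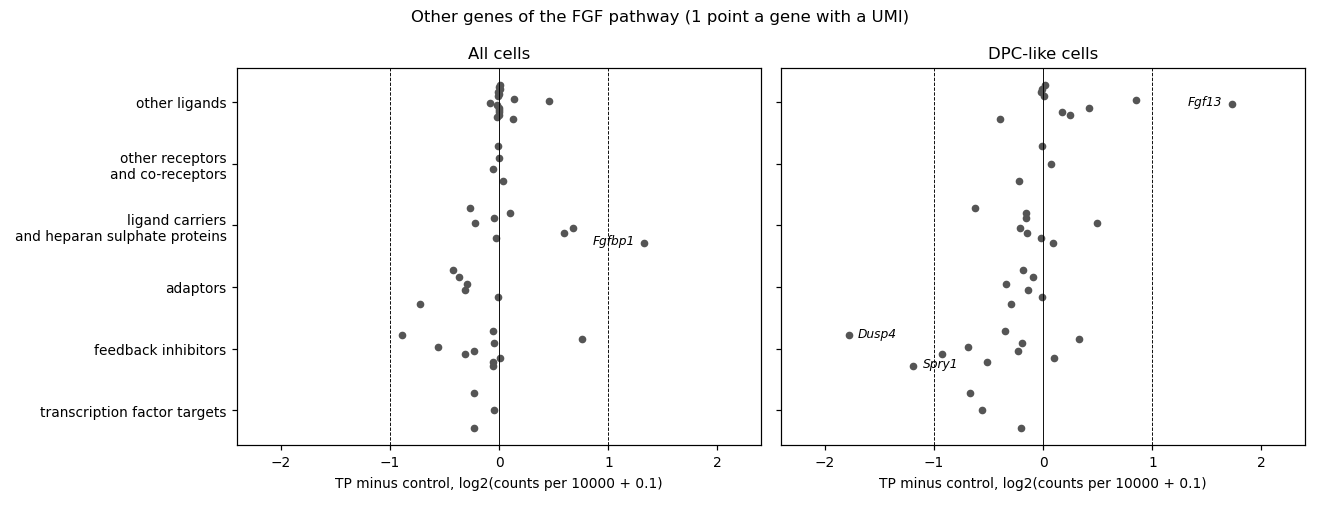
Difference between TP and control in log2 of counts per 10000 plus 0.1 (horizontal axis, dashed lines at 2-fold) for the other genes of the FGF pathway, by role (vertical axis), over all cells (left) and in DPC-like cells (right), with 1 point for each gene with a UMI. Fgfbp1 passes the line over all cells, and in DPC-like cells Fgf13 lies above it and Dusp4 and Spry1 below.

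Genes of like pattern were sought by Pearson's r of log2(CPM + 1) over 48 points, the sums of 24 classes and clusters in each library, among genes with at least 200 UMIs. The points share libraries and, within a library, free RNA, so the values are a description. Fgf7 was most like Rspo2 (0.92), Edn3 (0.92) and Rspo1 (0.92), and Fgf10 most like Corin (0.95), Edn3 (0.94) and Rspo1 (0.93). Fgf7 and Fgf10 correlated at 0.90, and Fgfr1 with them at 0.56 and 0.53. Fgf5 was most like Foxe1 (0.88), Gm12446 (0.88) and Dlx1as (0.82), Fgf9 most like Ifi205 (0.92), Ifi211 (0.92) and Cfb (0.92) and Fgf18 most like Emx2 (0.86) and Fmod (0.85). Fgf22 was most like Tdh (0.73), Gm14137 (0.70) and Pla2g4b (0.70). Fgfr1 was most like Tns3 (0.84), Arhgef40 (0.82) and Ltbp1 (0.81), Fgfr2 most like Smo (0.88), Lrrc45 (0.82) and Yap1 (0.82) and Fgfr3 most like Sipa1l3 (0.83), Tfap2c (0.83) and Ofd1 (0.82). Fgfr2 and Fgfr3 correlated at 0.62.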

How the data were processed

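Dorsal skin cells of 1 control and 1 TP library were analysed. The authors aligned reads with Cell Ranger 8.0.1 to mm10 (GRCm38), and the deposited values are raw UMI counts by gene and barcode, not normalized. Gene positions come from RefSeq GRCm38.p6, matched by symbol.

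Computed here: barcodes needed 200 to 8000 detected genes and a mitochondrial share of 10% or less, and 7.5% of those left in each library were removed as doublets by a rewritten DoubletFinder procedure (3168 control and 1503 TP cells). Seurat 5.3.0 (reciprocal PCA integration, 30 components, Louvain resolution 1) clustered the cells on 1991 variable genes, after 9 FGF members or list genes were left out. Marker scores named clusters (a mean marker level of at least 0.55 of its range over clusters, at least 3 markers detected, and a marker among the 10 leading genes or a score of at least 0.7 that led by 0.1, with no other class having more markers among those genes), with thresholds set after clusters had been seen. Krt85 was not used here. Poisson, Clopper-Pearson and conditional binomial intervals at 95% cover counting error only. Ratios are given where a gene had at least 50 UMIs over both libraries and the class 50 cells in each. edgeR 4.0.16 gave TMM factors, and no count test was run with 1 library per group. The fold rule and the intervals were tested on simulated data. The members and all lists were chosen with earlier results of these data known. Named are the members, list genes at least 2-fold apart or among the 5 highest in a library, the 3 genes most like each member (for Fgf18, 1 of them is not reported here), the 3 leading genes of a described cluster, and markers where a class was checked. Spry4, Etv5, and Dusp6, Etv4 and Flrt2 in classes that are no member's main class, were chosen after their values were seen.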

Additional observations from a re-analysis of the deposited data

Results flagged for a closer look

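Among the classes and clusters, 3 genes had TP over control ratios whose intervals lay on opposite sides of 1 in different cells. The differences themselves were not tested. For Fgf7, cluster 29 (led by Myh11, Tagln and Lmod1) had a ratio of 8.76, from 3 control and 87 TP UMIs, against 0.108 in melanocyte-like cells. The inner root sheath markers summed to 2437 CPM in control and 459.0 CPM in TP in cluster 29, and to 3464 and 330.9 CPM in melanocyte-like cells, and their part was not tested. For Fgfr1, cluster 12 had 1.77 against 0.479 in cluster 10 (led by Gm47071, Il34 and Ghr). The inner root sheath markers summed to 3154 CPM in control and 947.0 CPM in TP in cluster 12, and to 2876 and 590.8 CPM in cluster 10. Their part was not tested. For Fgfr2, cluster 29 had 1.89 against 0.258 in myeloid-like cells, where the inner root sheath markers summed to 2436 and 457.0 CPM.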

How the results depend on the processing

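No paired analysis was possible because each group is 1 library and no test was run. Among ratios over all cells and in main classes whose interval left out 1, these 2 turned direction: Fgf9 over all cells with the control's cluster shares (0.684) and Fgfr3 in IFE suprabasal-like cells with a TMM factor (1.02). Values that left the interval of the reported value follow, and for each of them the cause was not tested. Among them Fgf18 over all cells, Fgf22 in IFE suprabasal-like cells and Fgfr2 in DPC-like cells, whose intervals held 1, crossed it.

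Ratios over all cells with a TMM factor were 0.180 (Fgf5), 0.485 (Fgf7), 0.326 (Fgf10), 1.41 (Fgfr1), 0.841 (Fgfr2) and 0.911 (Fgfr3). Thinned to 1000 UMIs they were 0.118 (Fgf5), 0.476 (Fgf7), 3.12 (Fgf9), 0.332 (Fgf10), 1.99 (Fgf18), 0.654 (Fgf22), 1.53 (Fgfr1) and 0.850 (Fgfr2). With the control's cluster shares they were 0.326 (Fgf5), 0.714 (Fgf7), 0.524 (Fgf10), 0.958 (Fgf18), 0.928 (Fgfr2) and 0.815 (Fgfr3). With doublet calls kept they were 0.380 (Fgf7), 0.256 (Fgf10), 1.10 (Fgfr1) and 0.678 (Fgfr2), and with at most 5% mitochondrial counts 0.367 (Fgf7), 0.244 (Fgf10), 1.07 (Fgfr1) and 0.666 (Fgfr2).

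Ratios in the main class with a TMM factor were 0.692 (Fgf7), 0.475 (Fgf10), 1.75 (Fgfr1) and 1.10 (Fgfr2). Thinned they were 0.264 (Fgf5), 0.631 (Fgf9), 0.466 (Fgf10), 0.641 (Fgf22) and 1.70 (Fgfr1). With doublet calls kept, where all cells were clustered and named anew, they were 0.732 (Fgf7), 0.499 (Fgf10), 1.86 (Fgfr1) and 0.983 (Fgfr2). Added after seeing the data, the control's shares of the DPC-like clusters gave 0.730 (Fgf7), 0.537 (Fgf10), 1.34 (Fgfr1) and 0.979 (Fgfr2), and cluster 28 added to the DPC-like class gave 0.604 (Fgf7) and 0.417 (Fgf10). Leaving out DF-like cells marked as Schwann cells, also added then, kept Fgf9 within its interval.

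Levels with doublet calls kept, control first, were 19.2 and 10.2 CPM (Fgf5), 2162 and 1581 CPM (Fgf7), 1.55 and 0.200 CPM (Fgf18) and 366.4 and 679.9 CPM (Fgfr1), with 1483 CPM (Fgf10) and 439.4 CPM (Fgfr2) in control and 59.8 CPM (Fgfr3) in TP.

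Shares of cells without thinning, control first, were 8.96 and 9.12% (Fgf5), 83.4 and 78.4% (Fgf7), 72.5 and 65.3% (Fgf10), 0.914 and 0.404% (Fgf18), 0.441 and 1.53% (Fgf22), 58.3 and 83.0% (Fgfr1), 57.9 and 75.7% (Fgfr2) and 35.0 and 47.9% (Fgfr3), with 4.89% (Fgf9) in TP. Thinned to 2000 UMIs they were 4.46 and 2.17% (Fgf5), 89.2 and 72.5% (Fgf7), 77.9 and 50.8% (Fgf10), 57.4 and 70.9% (Fgfr1), 52.0 and 53.8% (Fgfr2) and 13.4 and 10.8% (Fgfr3), with 10.8% (Fgf9) and 0.765% (Fgf18) in control.

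Counts of genes 2-fold higher and lower were 297 and 142 of 26229 genes (1.13 and 0.541%) in the reported setting. They were 1447 and 1840 with a 1-UMI pseudocount over the 17576 genes with at least 50 UMIs (8.23 and 10.5%). With a TMM factor they were 469 and 75, and with the control's cluster shares 51 and 4. Of the 9 members, 0 and 3 in the reported setting, the counts were 1 and 3, 0 and 1, and 0 and 0 in the same order. At resolution 0.6 all 27 values stayed within the interval. Depth limits Fgf9, Fgf18 and Fgf22, with at most 164 UMIs a library.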
